A study of Homo sapiens with 5 samples.

Results

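The regions described here are control-only H3K27ac summits, positions where acetylation of histone H3 at lysine 27 (H3K27ac) was listed after control siRNA and nowhere within 2000 bp after ENO1-IT1 siRNA. Positions count from 1 and refer to hg19. There were 1926 of these regions among the 29429 summits of the control H3K27ac list, or 6.54%. The other 27503 control summits, called kept here, had a knockdown H3K27ac summit within 2000 bp. The regions were thus chosen by the measured positions of both H3K27ac lists, whose values at them are given as a description, and the KAT7 and input lists, which took no part in the choice, carry the comparisons. The cells were HCT116, an established line from a human colorectal carcinoma, and had been transfected for 48 h with ENO1-IT1 siRNA or with control siRNA before chromatin immunoprecipitation and sequencing (ChIP-seq). ENO1-IT1 is a long noncoding RNA named for an intron of ENO1, the enolase 1 gene. Antibodies against H3K27ac and against KAT7 were used in each condition, and the remaining library was input DNA whose label gives no siRNA. Each group held 1 library, so the values describe these libraries and no difference could be tested against replicate error. The labels name 1 siRNA against ENO1-IT1 without its sequence, and the lists hold no transcript levels by which the knockdown could be checked.

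H3K27ac is laid down mainly by the acetyltransferases CBP and EP300 and marks active promoters and enhancers. KAT7, also called HBO1, is an acetyltransferase of the MYST family that works in complexes with BRPF or JADE scaffold proteins, acetylates histones H3 and H4, and is known for its part in the licensing of replication origins. H3K27ac and KAT7 are therefore separate readouts, a histone mark and an enzyme, and a position can carry either one without the other. Each list gives 1 position per peak, its summit, with a score that is the -log10 of a p or q value. Scores grow with sequencing depth and were used to rank summits within a list. The lists give no peak widths, so a knockdown peak whose summit lay more than 2000 bp away may still have reached a region called control-only.

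Many control-only summits lay close to acetylation that was still listed after knockdown. A knockdown H3K27ac summit lay 2 to 5 kb away for 744 of the 1926, or 38.6%. At the other end, 406 (21.1%) were more than 50 kb from any knockdown H3K27ac summit and 232 of these more than 100 kb. The median distance was 8880 bp. H3K27ac scores on either side of the 2000 bp limit were alike. The 64 control-only summits within 2100 bp had a median score of 4.48, and the 71 kept summits beyond 1900 bp had the same median of 4.48. The strongest H3K27ac summits of the control list that had no knockdown summit within 500 bp, chr1:8937810 (score 191) and chr1:8935949 (score 112), are not among the regions, because knockdown summits were listed 1163 and 659 bp from them.

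Control-only summits were mostly weak. Their median score was 3.96 (quartiles 2.93 and 6.46), against 7.31 (quartiles 4.23 and 12.3) for the kept summits. A score of at least 20 was reached by 99 control-only summits (5.14%), and by 2862 kept summits (10.4%). The single most frequent score, 2.93, was held by 226 control-only summits (11.7%) and by 958 kept ones (3.48%). Among the 1000 highest-scored summits of the control list, 42 (4.20%) were control-only, and the best of them ranked 128. The control-only summits also lay farther from other acetylation of their own list. The median distance to the nearest other control H3K27ac summit was 9071 bp (quartiles 2202 and 43396 bp) for control-only summits and 1221 bp (quartiles 681 and 15097 bp) for kept ones.

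KAT7 was listed at a larger share of the control-only summits than of the kept ones, and the gap was wider for KAT7 after knockdown than for KAT7 in the control. A knockdown KAT7 summit lay within 500 bp of 466 control-only summits, or 24.2% (95% interval 22.3 to 26.2%), and of 3497 kept summits, or 12.7% (12.3 to 13.1%). Over all control H3K27ac summits the share was 13.5%. A control KAT7 summit lay within 500 bp of 365 control-only summits, or 19.0% (17.2 to 20.8%), and of 4003 kept summits, or 14.6% (14.1 to 15.0%), with 14.8% over all. The intervals are exact binomial ones and cover counting error only. The control KAT7 list held 122439 summits with a median score of 2.68 and the knockdown KAT7 list 24611 with a median of 7.67, so the control list could reach more positions. Cut to the 24611 highest-scored summits, the control KAT7 list reached 6.18% of control-only and 6.27% of kept summits, so the higher share of control KAT7 at control-only summits was not seen among its strongest calls. The direction for knockdown KAT7 also depended on the rule. Had a region been called control-only at more than 500 bp from a knockdown H3K27ac summit, its share with knockdown KAT7 would have been 9.07%, against 15.2% for the kept summits. At 1000 bp the shares were 14.2% and 13.4%.

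Divided by both KAT7 lists, 274 control-only summits had KAT7 in both conditions, 192 after knockdown alone, 91 in the control alone and 1369 in neither. KAT7 in both conditions thus took 14.2% (12.7 to 15.9%) of the control-only summits and 9.50% (9.15 to 9.85%) of the kept ones, with 9.81% over all control H3K27ac summits. KAT7 after knockdown alone took 9.97% (8.67 to 11.4%) and 3.22% (3.01 to 3.43%), with 3.66% over all. KAT7 in the control alone took 4.72% (3.82 to 5.77%) and 5.06% (4.80 to 5.32%), with 5.04% over all. No KAT7 was listed at 71.1% (69.0 to 73.1%) of control-only and 82.2% (81.8 to 82.7%) of kept summits, with 81.5% over all. The excess of KAT7 at control-only summits thus lay in the classes where KAT7 was listed after knockdown, and the share with control KAT7 alone was close to its background.

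Isolation of a summit went with KAT7 in all groups. Of the 444 control-only summits more than 50 kb from any other control H3K27ac summit, 50.7% (45.9 to 55.4%) had knockdown KAT7, and of the 3593 kept summits this isolated 36.0% (34.4 to 37.6%) did. Of the 436 control-only summits with a neighbour within 2 kb, 4.36% (2.64 to 6.72%) had it, and of the 16167 such kept summits 5.55% (5.21 to 5.92%). Control KAT7 was listed at 38.1% (33.5 to 42.8%) of the isolated control-only summits and 36.6% (35.0 to 38.2%) of the isolated kept ones. When the kept summits were weighted to the spacing of the control-only ones, they had knockdown KAT7 at 18.3% and control KAT7 at 19.5%, against 24.2% and 19.0% for the control-only summits. At like spacing, then, 5.85 percentage points of the gap remained for knockdown KAT7, while the control KAT7 shares differed by -0.590 points. With score and spacing weighted together, in 20 classes, the kept summits had 12.4% and 13.6%, differences of 11.8 and 5.40 points.

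**Figure D1:**
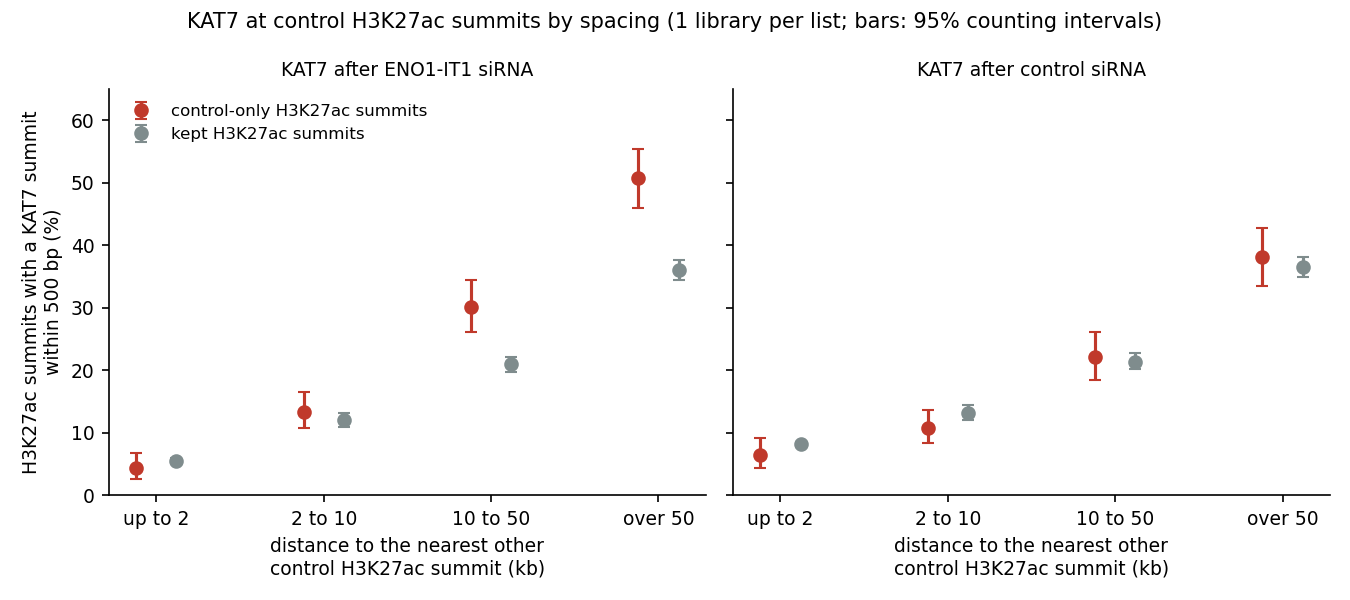
Percent of control H3K27ac summits with a KAT7 summit within 500 bp (vertical axis), by distance to the nearest other control H3K27ac summit in kb (horizontal axis), for KAT7 after ENO1-IT1 siRNA (left) and after control siRNA (right). Red points are control-only and grey points kept summits, with 95% counting intervals; the red points stand above the grey ones for knockdown KAT7 beyond 10 kb (30.1% against 21.0%, and 50.7% against 36.0%), while the intervals overlap for control KAT7.

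KAT7 was most frequent at the control-only summits that lay farthest from acetylation in the knockdown list. Of the 232 lying over 100 kb from knockdown acetylation, 144 (62.1%, 55.5 to 68.3%) carried knockdown KAT7 and 104 (44.8%, 38.3 to 51.5%) control KAT7, and 97 (41.8%) had both. Among the 744 at 2 to 5 kb, the shares were 8.20% (6.33 to 10.4%) for knockdown and 8.33% (6.45 to 10.6%) for control KAT7. The classes between them, at 5 to 20 kb and 20 to 100 kb, had knockdown KAT7 at 20.8% and 34.5% and control KAT7 at 15.2% and 26.9%. The median score of the knockdown KAT7 summits was higher with distance as well, at 8.38, 11.6, 13.3 and 22.1 from the nearest class to the farthest. At the remote positions the control H3K27ac summits had a median score of 5.03, and none of the 232 scored 20 or more. The classes also differed in isolation within the control list. Their median distances to the nearest other control H3K27ac summit were 2154, 10146, 41815 and 186727 bp. Remoteness from knockdown acetylation and isolation from control acetylation thus rose together among control-only summits and were not separated here. Kept summits all lay within 2000 bp of knockdown acetylation. Their share with knockdown KAT7 was 5.55% at a spacing of up to 2 kb and 36.0% over 50 kb.

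**Figure D2:**
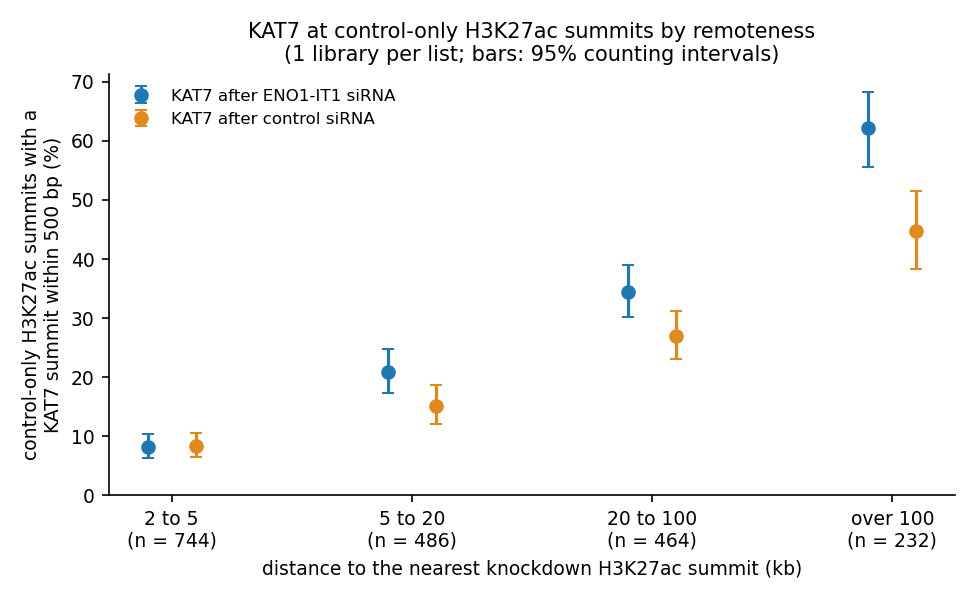
Percent of control-only H3K27ac summits with a KAT7 summit within 500 bp (vertical axis), by distance to the nearest knockdown H3K27ac summit in kb (horizontal axis); points are 1 library per list, with 95% counting intervals. Knockdown KAT7 (blue) goes from 8.20% in the nearest class to 62.1% in the farthest, and control KAT7 (orange) from 8.33% to 44.8%. The farther classes are also more isolated within the control H3K27ac list.

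The relation with KAT7 was turned at the strongest control-only summits. In the lower 4 of 5 equal classes of the control H3K27ac score, knockdown KAT7 was listed at 16.5%, 28.2%, 38.9% and 37.5% of control-only summits, against 4.81%, 8.90%, 12.6% and 15.0% of kept summits. In the highest class it was listed at 6 of 133 control-only summits, 4.51% (1.67 to 9.56%), and at 1210 of 5753 kept summits, 21.0%. Control KAT7 showed the same turn, at 9 of 133 control-only summits, 6.77% (3.14 to 12.5%), and 1321 of 5753 kept summits (21.9 to 24.1%) in the highest class. Among summits scoring at least 20, 3 of 99 control-only ones had knockdown KAT7 and 4 had control KAT7, and none had both. Of the 2862 kept summits with such scores, 26.1% had knockdown and 27.8% control KAT7. These strong control-only summits stood within acetylated stretches. Another control H3K27ac summit lay within 10 kb of 92 of the 99 (92.9%), against 68.0% of the kept summits with such scores, and a knockdown H3K27ac summit lay within 10 kb of 96 (97.0%). By the rule, all kept summits have a knockdown H3K27ac summit that near. The median number of knockdown H3K27ac summits within 10 kb was 3, against 2 for the kept summits with such scores.

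**Figure D3:**
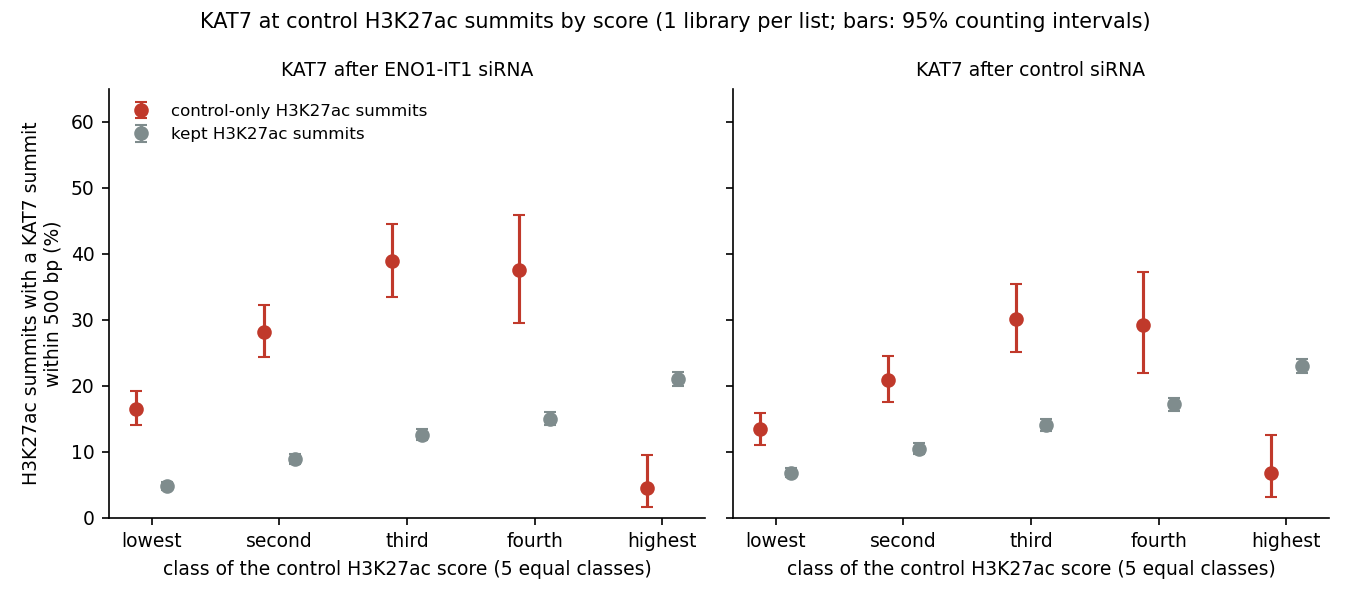
Percent of control H3K27ac summits with a KAT7 summit within 500 bp (vertical axis) in each of 5 equal classes of the control H3K27ac score (horizontal axis), for KAT7 after ENO1-IT1 siRNA (left) and after control siRNA (right). Red points are control-only and grey points kept summits, with 95% counting intervals; red lies above grey in the lower 4 classes and below it in the highest, at 4.51% against 21.0% for knockdown KAT7.

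Where KAT7 was listed within 500 bp, about as many of its summits lay within 20 bp of the acetylated position as farther off. Of the 466 knockdown KAT7 summits nearest to a control-only summit within 500 bp, 266 (57.1%, 52.4 to 61.6%) were within 20 bp, against 48.4% (46.7 to 50.1%) at kept summits. For control KAT7 the number within 20 bp was 175 of 365 (47.9%, 42.7 to 53.2%), against 32.2% (30.7 to 33.6%). Median distances were 16 bp for knockdown and 24 bp for control KAT7. At the few control-only summits scoring at least 20 that had KAT7, the medians were 303 bp for knockdown (3 summits) and 384 bp for control KAT7 (4 summits). At 184 control-only summits (9.55%) both KAT7 lists had a summit within 50 bp, and 1582 kept summits (5.75%) had this pattern. Without these sites in either group, knockdown KAT7 was listed at 16.2% of control-only and 7.39% of kept summits, and control KAT7 at 10.4% and 9.34%.

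**Figure D4:**
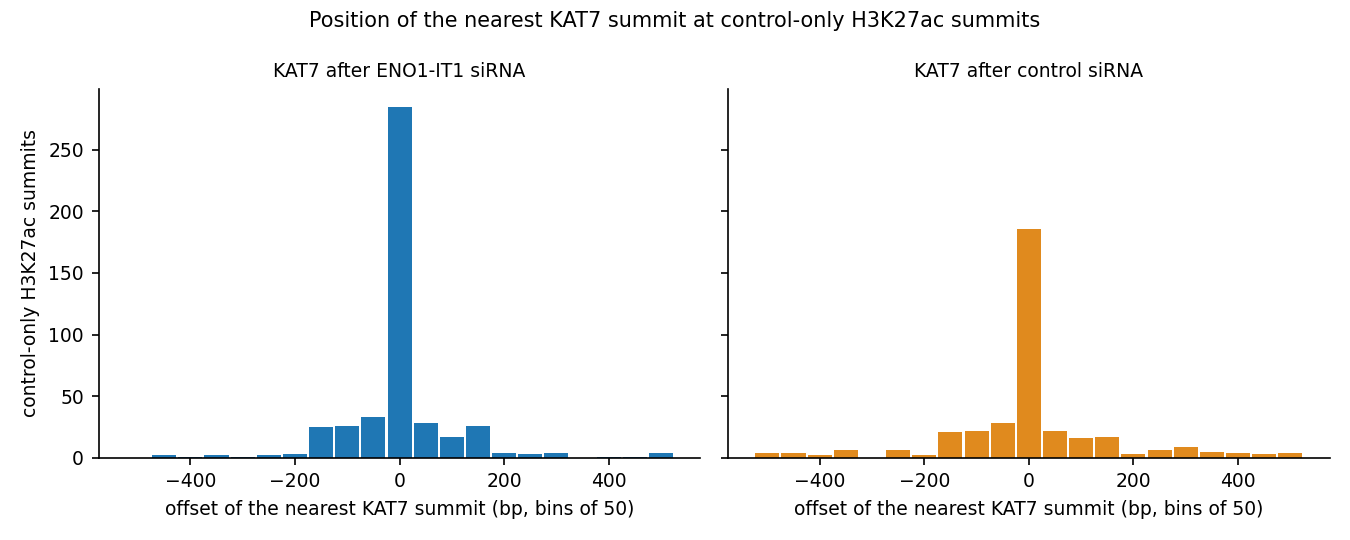
Number of control-only H3K27ac summits (vertical axis) by the offset of the nearest KAT7 summit in bp, in bins of 50 bp (horizontal axis), for KAT7 after ENO1-IT1 siRNA (left) and after control siRNA (right). The central bin holds 285 summits for knockdown and 186 for control KAT7, and no other bin holds more than 33.

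Taken over all scores of H3K27ac, the KAT7 summits at these regions had lower scores than those at kept acetylation. At like H3K27ac score this held for knockdown KAT7 in the highest class but not in the lower 4. The median score of knockdown KAT7 was 13.6 at control-only and 23.4 at kept summits, and 170 of 466 (36.5%, 32.1 to 41.0%) against 52.6% (50.9 to 54.3%) scored at least 20. Control KAT7 had a median score of 2.68 at control-only and 3.74 at kept summits, with 4 of 365 (1.10%, 0.299 to 2.78%) against 6.65% (5.89 to 7.46%) scoring at least 20. In the lower 4 classes of the H3K27ac score the median knockdown KAT7 scores were 7.67, 11.6, 19.3 and 33.5 at control-only summits, against 6.64, 11, 18.0 and 25 at kept ones. In the highest class the medians were 12.3 at control-only and 60.6 at kept summits, from 6 and 1210 summits with knockdown KAT7. The control KAT7 median of the control-only summits in that class rests on 9 summits. Control KAT7 medians at control-only and kept summits were both 2.68 in the lowest 2 classes, 4.28 and 2.68 in the third, 2.68 and 2.80 in the fourth, and 2.68 and 6.02 in the highest. At like spacing, knockdown KAT7 at the summits over 50 kb from another had a median of 19.1 at control-only and 47.9 at kept summits. The medians were 13.3 and 28.8 at a spacing of 10 to 50 kb, and 9.05 and 17.8 at 2 to 10 kb. Up to 2 kb the order was reversed, at 7.76 and 5.83, with only 19 control-only summits that had knockdown KAT7. Of the 4139 knockdown KAT7 summits of the whole list that scored at least 20, 170 lay within 500 bp of one of the 1926 control-only summits. Another 1842 lay this near to one of the 27503 kept summits, a far larger set. Knockdown KAT7 scoring at least 10 was listed at 14.9% of control-only and 8.06% of kept summits. Scores of the knockdown and control KAT7 lists cannot be set against each other, as neither depth is known.

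The 10 highest-scored control-only summits had scores of 57.0 to 80.8 and ranked 128 to 228 in the control list. None had a KAT7 summit near. The closest was a control one 2666 bp away and, among knockdown ones, one 7082 bp away. The first was chr2:182655143 with a score of 80.8, where the nearest knockdown H3K27ac summit was 4653 bp away and scored 3.69, and a stronger one, 6548 bp away, scored 101. It was followed by chr3:111642708 with 76.6, chr8:126677214 with 72.0, chr10:28409823 with 64.0 and chr18:3624737 with 58.4. The remaining ones were chr8:128234767 with 58.4, chr3:98690722 with 58.2, chr9:21778421 with 58.1, chr4:30953553 with 57.7 and chr16:69443882 with 57.0. For all 10 a knockdown H3K27ac summit was listed 2014 to 6931 bp away. For 9 of the 10, a knockdown H3K27ac summit scoring at least 20 was listed within 10 kb, with scores of 70.5 to 135. The exception was chr9:21778421, where the strongest one within 10 kb scored 19.4. Strong acetylation was thus listed after knockdown around these 9 positions, with its summit at another place. Regions were not assigned to genes, exons or promoters, since no hg19 annotation was used here.

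The highest-scored control-only summits with knockdown KAT7 were of 2 kinds, but these few do not stand for all such summits. Over all 192 with knockdown KAT7 alone, the median distance to it was 23 bp. Another control H3K27ac summit lay within 10 kb of 28.1% of them. At chr3:151688632, chr11:65779531 and chr4:31086092, each scoring 20.7, knockdown KAT7 lay 303, 130 and 319 bp away with scores of 15.0, 4.09 and 4.09, and other control H3K27ac summits were 4328, 3011 and 1347 bp away. The summits chr4:75236514 (H3K27ac score 14.9) and chr11:65687015 (14.1) likewise stood among other acetylation, with knockdown KAT7 at 137 and 298 bp. The other kind had KAT7 of both lists within 30 bp, whether or not other acetylation was near. At chr15:82503920, with an H3K27ac score of 17.7, a knockdown KAT7 summit scoring 68.3 lay 7 bp away and a control one scoring 2.68 lay 2 bp away. The nearest other control H3K27ac summit was 165603 bp off and the nearest knockdown one 143750 bp. At chrX:47033347 (H3K27ac score 14.3) KAT7 lay at 28 bp with a score of 68.3 after knockdown and at 6 bp with a score of 4.28 in the control. The summits chr12:7037397, chr15:33602551 and chr16:18023291, each with an H3K27ac score of 13.6, had KAT7 of both lists within 30 bp. Their KAT7 scores were 7.67, 17.8 and 43.1 after knockdown and 4.28, 2.68 and 6.02 in the control. Near chr12:7037397 another control H3K27ac summit lay 2837 bp away and a knockdown one, scoring 49.4, 2749 bp away. The nearest knockdown H3K27ac summit to chrX:47033347 was 2682 bp off and scored 5.21.

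**Figure D5:**
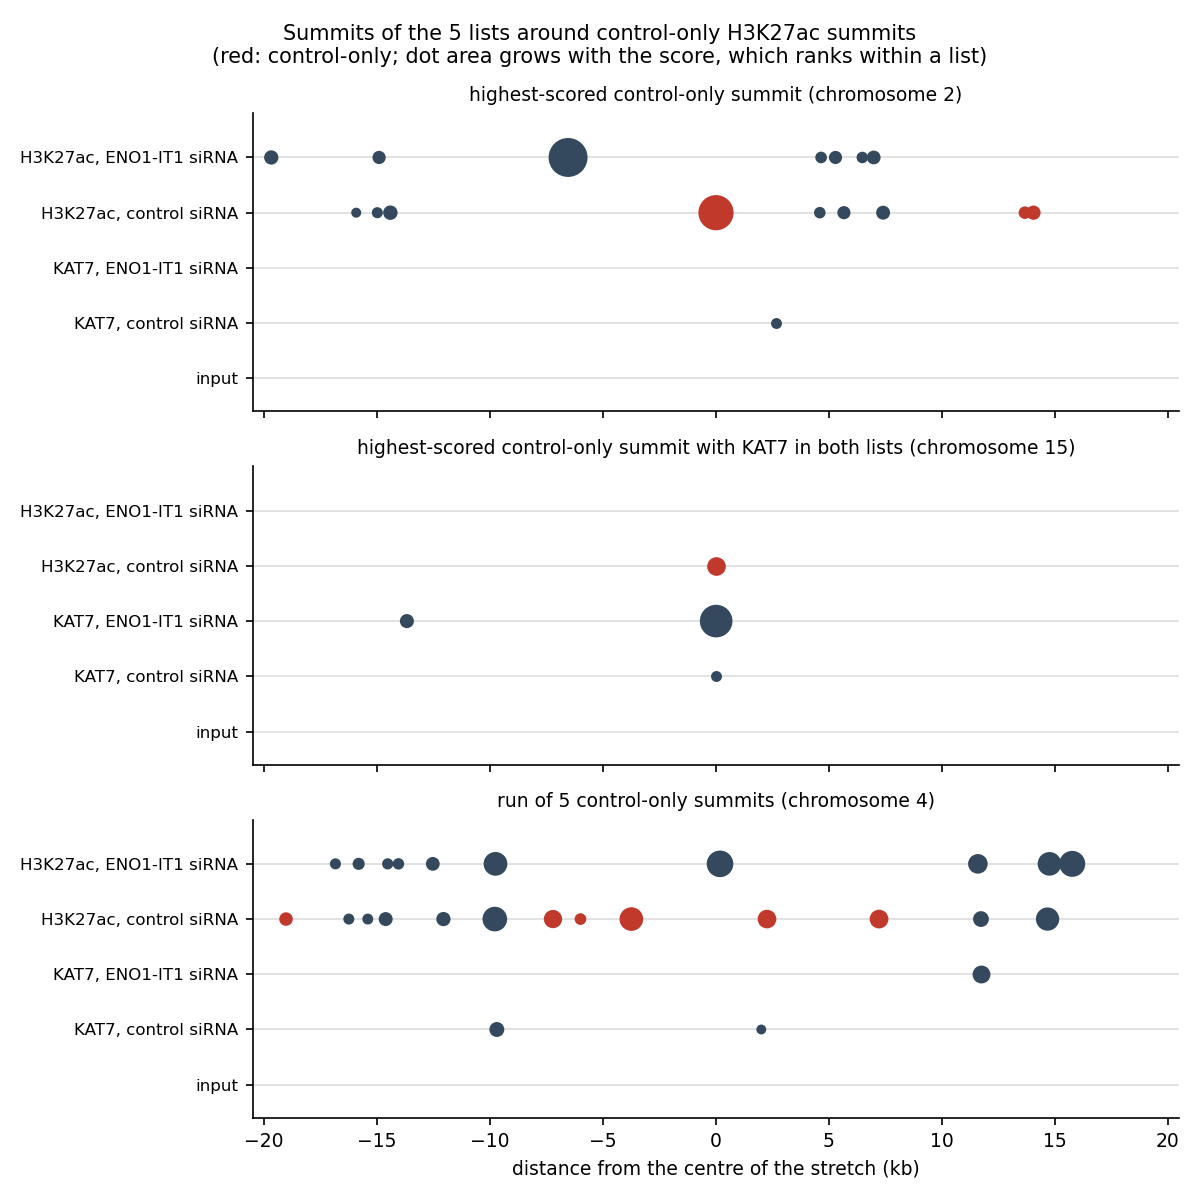
Summits of the 5 lists within 20 kb of 3 stretches (horizontal axis, distance in kb; rows, lists; dot area grows with the score and ranks within a list), with control-only H3K27ac summits in red. The chromosome 2 summit (score 80.8) has knockdown H3K27ac on both sides and no knockdown KAT7, the chromosome 15 summit (score 17.7) has KAT7 of both lists and no other H3K27ac, and the chromosome 4 run holds 5 control-only summits between knockdown H3K27ac summits.

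The 5 highest-scored control-only summits with control KAT7 had it at 82 to 472 bp, with scores no higher than the median of the control KAT7 list. These were chr7:79906238 with an H3K27ac score of 37.8, chr12:65893594 with 28.4, chr11:834836 with 26.5, chr7:100802824 with 23.5 and chr7:27212672 with 19.4. Their control KAT7 summits were 323, 446, 82, 472 and 413 bp away, and the highest of the KAT7 scores was 2.68. No knockdown KAT7 lay within 500 bp of these 5, the nearest being at 3525 bp.

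The control-only summits most remote from knockdown acetylation were weak, and 3 of the 5 carried KAT7 in both conditions. The farthest, chr21:22370595 (score 4.61), was 2867136 bp from a knockdown H3K27ac summit, with a control KAT7 summit at 157 bp and none after knockdown within 2893 bp. The next, chr2:90485352 (score 3.46), had no KAT7 summit closer than 8835 bp. At chr4:43299588 (score 6.15) KAT7 lay at 7 bp after knockdown and at 1 bp in the control. At chr8:111707555 (score 7.86) it lay at 25 and 36 bp, and at chr14:47099851 (score 7.80) at 2 bp in each list. The knockdown KAT7 scores of these 3 were 11.6, 51.0 and 46.4, and the control KAT7 scores 6.02, 3.76 and 5.80.

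Most control-only summits had no other control-only summit within 10000 bp. When those at most 10000 bp apart were joined into runs, 1508 of the 1926 (78.3%) had no other in their run, and the other 418 formed 183 runs. Kept summits did not count in these runs. Another control H3K27ac summit of either kind lay within 10 kb of 994 control-only summits (51.6%), against 71.7% of kept ones. There were 4 runs of 5 summits, which was the highest number. The first of them covered chr4:31039350-31053784, with scores of 3.76 to 32.2 and knockdown H3K27ac summits 2080 to 4376 bp away. The others covered chr2:182767326-182771180, chr4:75403234-75412312 and chr1:8264056-8275424, with highest scores of 15.4, 7.54 and 5.02. Of the 6 runs of 4 summits, the one with the highest summed score covered chr10:95221426-95225945 and reached a score of 31.8. The runs of 5 held 20 summits and the runs of 4 held 24. Knockdown KAT7 was listed at 1 summit of these 10 runs, in the run of 4 at chr6:26186467-26201711. Control KAT7 was listed at 2 summits of these 10 runs, 1 in the first run and 1 in the chromosome 1 run. Among all control-only summits with another control H3K27ac summit within 10 kb, the shares were 9.46% for knockdown and 8.85% for control KAT7. Kept summits with such a neighbour had 6.71% and 9.08%.

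Control-only summits were found on all 24 chromosomes of the list. Their share of the control summits ran from 4.26% (2 of 47) on chromosome Y and 4.78% (3.87 to 5.83%) on chromosome 19 to 8.25% (6.85 to 9.83%) on chromosome 10 and 8.34% (6.84 to 10.0%) on chromosome 8. On each of the 19 chromosomes with at least 50 control-only summits, knockdown KAT7 was listed at a larger share of these than of the kept ones, at 15.0 to 35.2% against 8.64 to 15.0%. For control KAT7 this held on 16 of the 19. Chromosomes of single libraries are not replicates. Input DNA gave a summit within 5000 bp of 9 control-only summits (0.467%, 0.214 to 0.885%) and of 56 kept ones (0.204%, 0.154 to 0.264%).

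The same rule turned round gave a longer list. H3K27ac summits without a counterpart within 2000 bp numbered 1926 in the control list, or 6.54%, and 6016 in the knockdown list, or 18.9%. Scores of at least 20 were reached by 99 of the 1926 control-only and 39 of the 6016 knockdown-only summits. As depth is unknown, scores of the control and knockdown H3K27ac lists cannot be set against each other. Within the knockdown list, the median score was 4.40 for knockdown-only summits and 9.94 for those with a control counterpart. Knockdown KAT7 lay within 500 bp of 24.2% (22.3 to 26.2%) of control-only and 18.8% (17.8 to 19.8%) of knockdown-only summits, and control KAT7 of 19.0% (17.2 to 20.8%) and 14.9%. The knockdown H3K27ac summits with a control counterpart had knockdown KAT7 at 13.2% (12.8 to 13.6%) and control KAT7 at 14.9%. A higher share of knockdown KAT7 was therefore shared by both unmatched sets, and KAT7 after knockdown alone took 8.14% (7.47 to 8.86%) of knockdown-only summits against 3.34% (3.12 to 3.56%) of knockdown summits with a counterpart. Knockdown-only H3K27ac summits were found within 10 kb of 329 control-only ones (17.1%). The same share was not counted for the kept summits, so this value has no background to be read against.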

How the data were processed

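ChIP-seq summit lists of 5 HCT116 libraries were used: H3K27ac and KAT7 after ENO1-IT1 siRNA and after control siRNA, and input. Per the submitters' processing notes, alignment to hg19 used Bowtie and peak calling used MACS2. Versions, calling options and the calling control were not given in the sources used here. Peak names carry a tag for duplicate removal and codes that do not tell the siRNA, so titles set the groups. The authors deposited 1 summit per peak with a score that is a -log10 p-value or q-value, as MACS2 writes it; which of these is not stated. Read depth is unknown.

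Positions are bed column 3. Distances, shares and plots were made with numpy 2.4.6, pandas 2.3.3, SciPy 1.17.1 and matplotlib 3.10.9 under Python 3.11.15. Distances of 2000 bp (H3K27ac) and 500 bp (KAT7) were main settings, and the 95% intervals of shares are exact (Clopper-Pearson). They leave out any dependence between neighbouring summits and any PCR copies among reads. With 1 library per group no test between siRNAs and no p-value was possible. Simulated lists with known overlaps were used to test the distance code. Named regions are the 10 highest-scored, the 8 highest with knockdown KAT7, the 5 highest with control KAT7 and with both, the 5 farthest from knockdown H3K27ac and the 5 runs with the most summits, ties by summed score. The regions, classes and rules were chosen with earlier results of these data known. Alternatives were other distances, score minimums, KAT7 lists of equal length, merged summits, chromosomes 1 to 22 and X, and removal of summits near input. Gene and promoter tables for hg19 were not used here.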

Additional observations from a re-analysis of the deposited data

How the results depend on the processing

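No paired analysis was possible because each group held 1 library. The number of control-only summits depended on the rule: 8281, 3749, 1182 and 925 when a summit counted as kept within 500, 1000, 5000 and 10000 bp, 766, 204 and 99 at control H3K27ac scores of at least 5, 10 and 20, and 4062 when only knockdown H3K27ac summits scoring at least 5 could keep a position. Their median score was 5.03 and 4.48 at 500 and 1000 bp, and 7.31, 19.2 and 28.4 at the 3 score minimums. The share with knockdown KAT7 was 9.07%, 14.2%, 34.3% and 38.9% at the 4 distances, 32.0%, 10.8% and 3.03% at the score minimums, and 17.0% with the minimum on the knockdown H3K27ac list. It was 19.1% and 26.6% with KAT7 within 100 and 2000 bp, and 14.9% with KAT7 scores of at least 10. The share with control KAT7 was 10.1%, 12.5%, 25.6% and 29.5% at the 4 distances, 25.7%, 10.8% and 4.04% at the score minimums, and 14.9% with the minimum on the knockdown list. It was 13.5%, 16.8%, 21.7% and 26.9% with KAT7 within 100, 250, 1000 and 2000 bp, 7.94% and 0.779% with KAT7 scores of at least 3 and 10, and 6.18% with KAT7 lists of equal length. Under 2 settings chosen after seeing the data, the shares with knockdown and control KAT7 were 16.2% and 10.4% without sites that had KAT7 of both lists within 50 bp, and 9.46% and 8.85% among summits with another control H3K27ac summit within 10000 bp. Merging neighbours, leaving out chromosome Y and leaving out summits near input moved none of the 4 values beyond its interval, or the number by over 1.5 times.

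Set against the kept summits, knockdown KAT7 was more frequent at control-only summits under 16 of 19 settings. The exceptions were the 500 bp rule and H3K27ac scores of at least 10 (10.8% against 18.8%) and 20 (3.03% against 26.1%). Control KAT7 was more frequent under 12 of 19, at times by little, as with 14.9% against 14.8% with the minimum on the knockdown H3K27ac list. It was not more frequent under the 500 and 1000 bp rules or at H3K27ac scores of at least 10 and 20. The same held for KAT7 scores of at least 10, KAT7 lists of equal length, and summits with another control H3K27ac summit within 10000 bp. All settings reuse the same lists. The cause of the changes between settings was not tested. With 1 library per list and depth unknown, a position absent from a list may lie just under the calling threshold.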
